A study of Strongylocentrotus purpuratus with 5 samples.

Results

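The strongest compact regions of open chromatin in *Strongylocentrotus purpuratus*, the purple sea urchin, at 20 h of development were 1082 of the 258515 regions in the pooled 20 h list. They were chosen on their measured values. A region was taken when it was shorter than 1000 bp and when its best overlapping peak had a −log10 p of at least 10 in each of the 3 libraries of that stage. The set made up 0.419% of the 20 h regions by number and 0.903% by summed length, which was 737 kb. It lay on 743 of the 7795 scaffolds that held a 20 h region. Since the −log10 p values chose the regions, the strengths given below are descriptions and carry no test.

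The study profiled embryos of the blastula, the hollow ball of cells that precedes gastrulation, to find developmental enhancers. The 20 h group held 3 ATAC-seq libraries from 2 biological replicates, with replicate 2 as 1 library and replicate 1 as technical replicates 1 and 2. The 12 h group held 2 biological replicates, which entered here only through 1 pooled list of 238838 regions. Nuclei of 20 h replicate 2 and of the 12 h samples were isolated on a density gradient. Those of 20 h replicate 1 were isolated by another published procedure. The paper says that embryo batches differed too, at times by season. Replicate, preparation and batch therefore cannot be told apart. All samples were whole embryos, with no treatment named and cell types mixed.

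In ATAC-seq a transposase inserts sequencing adapters where DNA is not wrapped tightly around nucleosomes, so that read ends pile up over open stretches. Such stretches include promoters and enhancers, where transcription factors bind and displace or flank nucleosomes. The peak caller reports the base with the highest pile as the summit, the ratio of the pile there to the local background as the fold, and the chance of such a pile under that background as −log10 p. A peak with several local maxima has 1 summit for each. The −log10 p grows with read depth as well as with fold, and neither value carries a replicate error.

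Of the 255076 regions of the 20 h list under 1000 bp, 7094 (2.78%) reached the limit in replicate 2, 3142 (1.23%) in technical replicate 1 and 5850 (2.29%) in technical replicate 2. All 3 libraries together gave the 1082 regions, or 0.424%. The limit was met by 1734 regions without regard to replicate 2, by 2314 without technical replicate 1 and by 1505 without technical replicate 2. The library that came closest to excluding a region was technical replicate 1 in 536 regions, technical replicate 2 in 349 and replicate 2 in 197. The lists held 160654 peaks in replicate 2, 248700 in technical replicate 1 and 300000 in technical replicate 2. Peaks at or above the limit made up 5.59% of the first list, 1.65% of the second and 2.41% of the third. The lists hold no read counts, but the study's quality summary gives read totals after removal of duplicates, lowest in replicate 2 and highest in technical replicate 2. The library with the most regions past the limit was thus the shallowest. The 100 regions under 1000 bp with the highest −log10 p included 67 members of the set in replicate 2, 57 in technical replicate 1 and 51 in technical replicate 2. The top of each library's own ranking therefore also held regions that fell below the limit in another library.

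The fold over local background was higher in replicate 2 than in replicate 1 for most of the set. In replicate 2 the lowest, median and highest folds were 4.09, 9.52 and 26.4. Technical replicate 1 had 4.04, 7.38 and 35.7, and technical replicate 2 had 3.99, 6.97 and 27.7. Replicate 2 exceeded the mean of the technical replicates in 884 of the 1082 regions (81.7%), by a median of 0.37 on the log2 scale (interquartile range 0.09 to 0.65). The per region mean over biological replicates had a median of 8.65, and the per region SD (n = 2) a median of 1.72. Within the set the spread between biological replicates was larger than that between technical replicates. The folds lay within 1.5 times of each other in 719 regions (66.5%) between biological replicates and in 1012 regions (93.5%) between technical replicates. They differed by more than 2 times in 51 regions, of which 48 were higher in replicate 2.

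**Figure D1:**
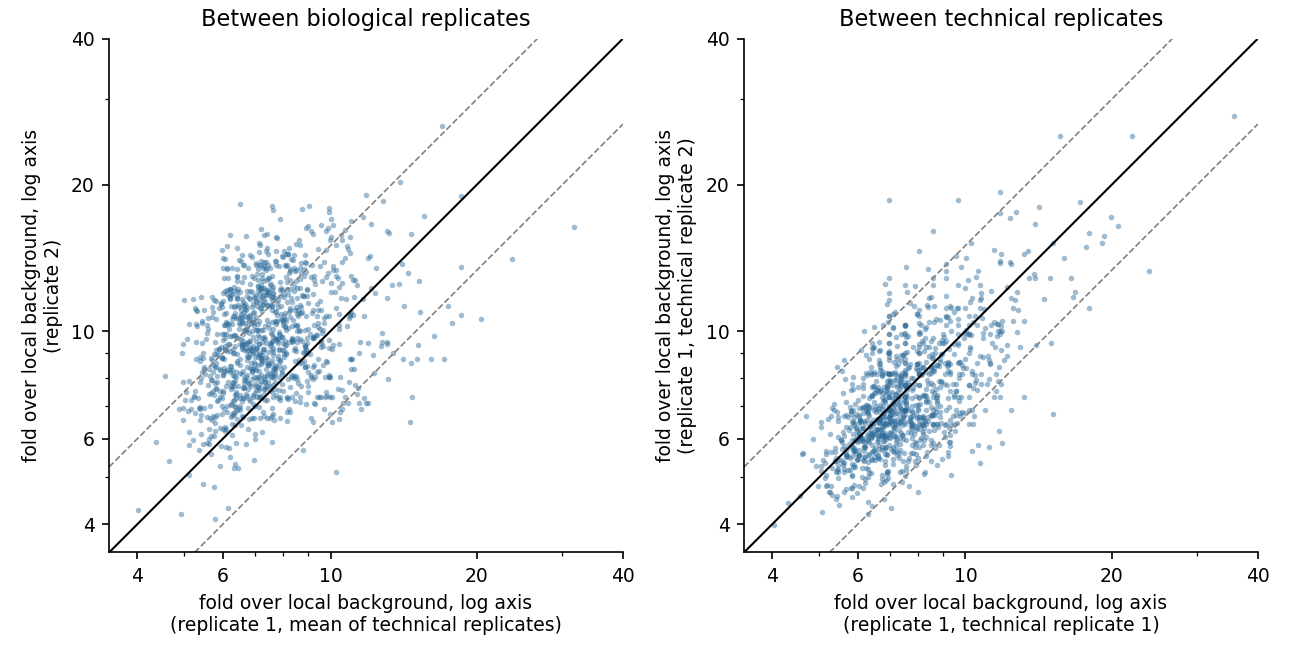
Fold over local background of the 1082 regions on log axes, replicate 2 against the mean of both technical replicates of replicate 1 (left) and technical replicate 2 against technical replicate 1 (right). Each point is 1 region, the solid line marks equal folds and the dashed lines a difference of 1.5 times; 884 points lie above the solid line on the left, and 93.5% of points lie between the dashed lines on the right against 66.5% on the left.

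The ranking of regions by fold agreed more closely within replicate 1 than between replicates. Across the 1082 regions the Spearman correlation was 0.30 between replicate 2 and the mean of replicate 1 (Pearson 0.31) and 0.59 between the technical replicates (Pearson 0.69). Each pair of libraries from different biological replicates gave a Spearman value of 0.27. These are correlations across regions, which are not independent replicates, and the choice of regions narrows the range of values on both axes. In the 69 regions whose lowest −log10 p of the 3 libraries was 20 or more, the Spearman value between biological replicates was 0.47, and in the 492 regions from 10 to under 12 it was 0.06. A near set served for comparison, made of the 4541 regions under 1000 bp with a peak in all 3 libraries and a lowest −log10 p from 5 to under 10. There the Spearman value between biological replicates was 0.16, replicate 2 was higher in 74.1% of regions, and the median log2 ratio was 0.37. These bands of −log10 p come from the same libraries as the folds. A closed band holds the spread of values down more than an open one. The values of 0.47, 0.06 and 0.16 therefore do not measure how agreement changes with strength. The other 49351 compact regions with a peak in all 3 libraries, the near set included, had a fold higher in replicate 2 in 45.7%, with a median log2 ratio of -0.06. Their Spearman value was 0.36 between biological replicates and 0.41 between technical replicates, over different bounds of −log10 p. Folds lay within 1.5 times in 72.7% of them between biological replicates and in 79.8% between technical replicates. The near set had 60.7% and 85.6%.

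The highest mean fold over biological replicates was 24.1 ± 10.8 (SD, n = 2), in a 385 bp region on scaffold 47 (291547 to 291931). This region had a fold of 16.4 in replicate 2, 35.7 in technical replicate 1 and 27.7 in technical replicate 2, so that both libraries of replicate 1 lay above replicate 2. On scaffold 824 (454729 to 455528) the order was the same, with 14.1 in replicate 2, 22.03 in technical replicate 1 and 25.2 in technical replicate 2 (18.8 ± 6.74, SD, n = 2). On scaffold 3521 (60215 to 60816) the order was turned round, with 20.2 in replicate 2, 15.0 in technical replicate 1 and 12.9 in technical replicate 2 (17.1 ± 4.47, SD, n = 2). Scaffold 9 (383276 to 383550) had 17.3 in replicate 2, between 11.8 in technical replicate 1 and 19.3 in technical replicate 2, and here the technical replicates lay further apart than the biological ones. The remaining 4 of the 8 highest regions lay on scaffolds 55, 1909, 73 and 2459 with means from 15.7 to 21.7. The folds of replicate 2 and of replicate 1 overlapped in 3 of the 8, on scaffolds 1909, 9 and 73.

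**Figure D2:**
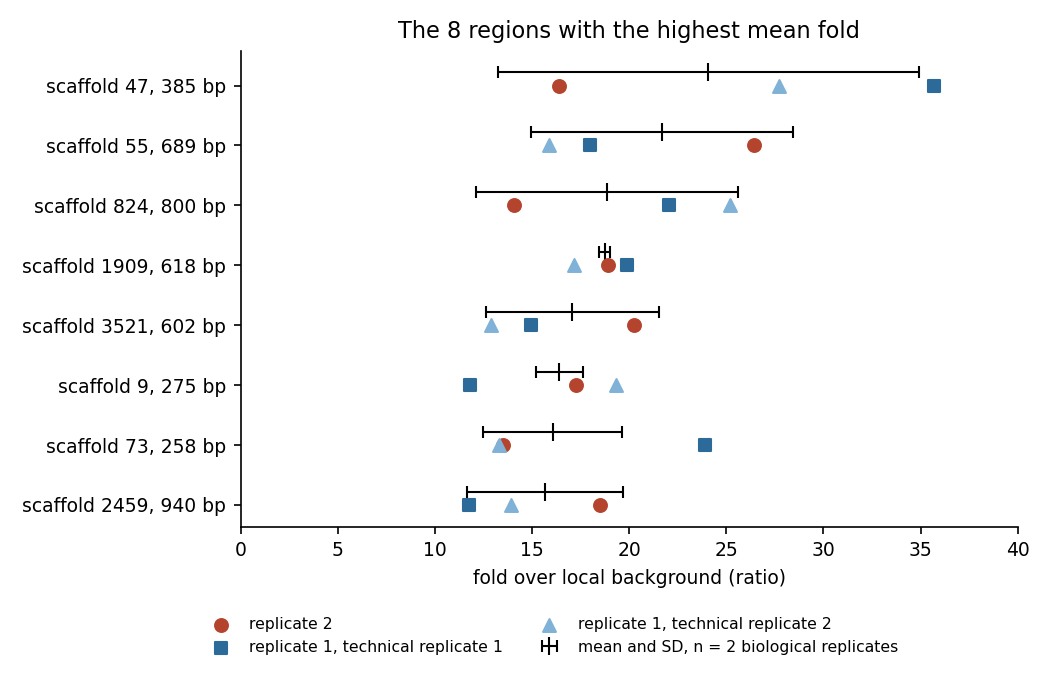
Fold over local background of the 8 regions with the highest mean fold, labelled by scaffold and length, with circles for replicate 2, squares for technical replicate 1 and triangles for technical replicate 2. The vertical tick and bar give the mean and SD over 2 biological replicates; the region on scaffold 47 spans 16.4 to 35.7 between libraries and the region on scaffold 1909 has an SD of 0.272.

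The regions with the largest excess in replicate 2 were spread over 4 scaffolds. The highest ratio, 2.80, belonged to scaffold 1002 (98856 to 99438), with 18.2 in replicate 2, 5.59 in technical replicate 1 and 7.45 in technical replicate 2. Regions on scaffold 4 (1878159 to 1878802), scaffold 235 (510639 to 511504) and scaffold 72 (1047489 to 1048038) followed with ratios of 2.54, 2.47 and 2.44. All 4 reached a −log10 p of 38.5 or more in replicate 2 and lay between 10.5 and 18.8 in replicate 1, close to the limit. At the other end, scaffold 1739 (37502 to 37958) had a fold of 6.49 in replicate 2, 18.0 in technical replicate 1 and 11.1 in technical replicate 2. Scaffolds 1150 (201478 to 201832), 1453 (139467 to 140121) and 236 (400765 to 401597) also had folds about as far apart, with ratios of replicate 2 to replicate 1 of 0.496, 0.498 and 0.511. The region nearest to equal folds was on scaffold 39 (624553 to 625358), with a fold of 9.55 in replicate 2 and of 9.55 as the mean of replicate 1. That mean hid a difference between its libraries, 11.6 in technical replicate 1 and 7.51 in technical replicate 2. On scaffold 585 (260637 to 261077) all 3 libraries agreed, at 8.99 in replicate 2, 8.97 in technical replicate 1 and 8.95 in technical replicate 2.

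A few members had very high −log10 p values in technical replicate 1. In that library 6 members had a −log10 p of 100 or more, up to 280 on scaffold 73 (738144 to 738401), against 2 members in technical replicate 2 and 0 in replicate 2, where the highest was 73.0. The 6 had folds of 5.12 to 16.4 in replicate 2, 13.2 to 35.7 in technical replicate 1 and, in technical replicate 2, 7.33 to 27.7. None of the 6 had a higher fold in replicate 2 than in the mean of replicate 1, whereas 81.7% of the set did. Picking extreme values of technical replicate 1 favours a high replicate 1 mean, so that this contrast is largely built in. Their lengths ran from 255 to 655 bp with a median of 356 bp, and they were chosen after their values were seen. The study's quality summary gives technical replicate 1 as the paired end library; the part of sequencing mode, depth and nuclear preparation in these differences was not tested.

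Applying the limit in 1 biological replicate and reading the other gives strengths that the limit did not use. The regions, their bounds and their lengths still came from the pooled 20 h list, which includes the replicate that was read. The share reaching the limit there, called the held out share below, is thus not fully independent of that replicate. Of 1734 compact regions that reached the limit in both libraries of replicate 1, 1082 reached it in replicate 2, which was 62.4% (95% Wilson interval 60.1 to 64.6, for counting error only) beside 2.78% of all regions under 1000 bp. The interval does not cover the dependence of this share on the libraries and lengths used. It was 39.6% when technical replicate 2 alone chose the regions, 47.9% when technical replicate 1 alone chose them, and 38.9% among regions under 500 bp. A replicate 2 peak of any strength was present in 91.7% (90.3 to 92.9) of the 1734, beside 37.0% of all compact regions. The fold there had a median of 8.05 (interquartile range 5.30 to 10.6), beside 2.92 in all compact regions with a replicate 2 peak, and 144 of the 1734 had no peak in replicate 2. In the reverse direction, 7094 regions reached the limit in replicate 2, and 15.3% (14.4 to 16.1) of them reached it in both libraries of replicate 1. Among all 255076 compact regions only the 1734 above did so. Taken singly, 1.23% of all compact regions reached it in technical replicate 1 and 2.29% in technical replicate 2. Of the 7094, 82.3% (81.4 to 83.2) had a peak of any strength in both libraries, for which no share over all compact regions is given here. Their median fold was 4.47 in technical replicate 1 and 4.67 in technical replicate 2, beside 3.08 and 2.97 in all compact regions with a peak in those libraries. Replicate 2 chose more regions at the same limit, so that the shares in each direction start from lists of unequal size.

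Members of the set were long for compact regions. Their median length was 690.5 bp (interquartile range 554.5 to 831, shortest 232, longest 999), against 592 bp in the near set, 429 bp in all other compact regions with a peak in every library and 250 bp in all compact regions. The shortest was on scaffold 188 (387093 to 387324), with folds of 7.75 in replicate 2, 10.8 in technical replicate 1 and 11.7 in technical replicate 2. The next in length were 235 bp on scaffold 703, 239 bp on scaffold 736, 240 bp on scaffold 73 and 241 bp on scaffold 1001. In these 5 the summits of the 3 libraries lay 8 to 28 bp apart, and replicate 2 had a higher fold than the replicate 1 mean in 3 of them.

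Length went together with the ratio between replicates. Replicate 2 had the higher fold in 61.7% of the 201 members under 500 bp, in 84.0% of the 351 from 500 to under 700 bp, in 85.9% of the 290 from 700 to under 850 bp and in 90.0% of the 240 from 850 to under 1000 bp. The median log2 ratio was 0.12 in the shortest class and 0.41 to 0.42 in the other 3. In the near set the share higher in replicate 2 was 67.5% in the shortest class and 76.2 to 78.8% in the others. The median fold of replicate 2 was 8.77, 9.85, 9.67 and 9.54 from the shortest to the longest class, and that of replicate 1 was 7.81, 7.36, 7.19 and 7.05. Replicate 2 thus had its lowest median in the shortest class, where replicate 1 had its highest. Over all members the Spearman correlation of length with fold was 0.07 in replicate 2 and -0.16 in replicate 1.

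Summits of the 3 libraries lay close together in most of the set. The median distance between summits was 31 bp from replicate 2 to technical replicate 1, 24 bp from replicate 2 to technical replicate 2 and 25 bp between the technical replicates. The near set had 52, 38 and 43 bp for the same pairs, and all other compact regions with a peak in every library had 100, 86 and 83 bp. Summits from different biological replicates were thus about as close as those from 1 replicate. The technical replicates differed in sequencing mode, with technical replicate 1 paired end and technical replicate 2 single end, whereas replicate 2 was single end too. Replicate and sequencing mode therefore cannot be told apart in these distances. The distance from the replicate 2 summit to the mean summit of replicate 1 had a median of 29.2 bp (interquartile range 12.5 to 101.2), against 50 bp in the near set and 77 bp in the 285 regions of 1000 bp or more that met the same limit. All 3 summits lay within 20 bp in 206 members (19.0%), against 10.5% of the near set, and spanned more than 100 bp in 365 (33.7%), against 47.5% of the near set. The middle 50% of the region's length held the summit in 81.8% of members in replicate 2, 80.8% in technical replicate 1 and 81.1% in technical replicate 2.

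**Figure D3:**
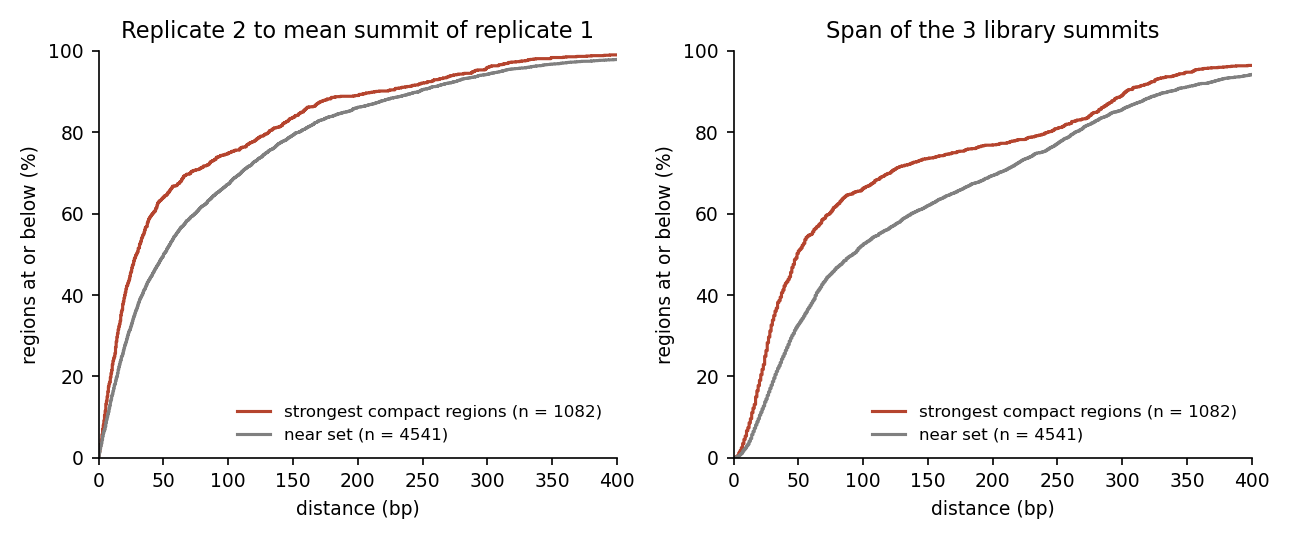
Cumulative share of regions by the distance from the replicate 2 summit to the mean summit of replicate 1 (left) and by the span of the 3 library summits (right), in bp, for the 1082 strongest compact regions and the 4541 regions of the near set. The curves of the strongest regions lie above those of the near set, with medians of 29.2 against 50 bp on the left and 49 against 92 bp on the right; 39 and 265 regions lie beyond 400 bp on the right.

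Large distances belonged mostly to regions with several summits. A library had 2 or more summits in 61.2% of members in replicate 2, 57.7% in technical replicate 1 and 60.7% in technical replicate 2, against 42.8%, 41.5% and 48.4% of the near set. The 247 members with a single summit in every library had a median length of 471 bp, and their summits spanned more than 100 bp in 10.1%. The 444 members with 2 or more summits in every library had a median length of 800.5 bp, and there the share was 49.1%. Within a library the strongest summit and the next lay a median of 292 bp apart in replicate 2, 281.5 bp in technical replicate 1 and 293 bp in technical replicate 2. The interquartile ranges together ran from 244 to 340 bp, and the near set had medians of 285 to 287 bp. When the closest pair of summits in a region was taken in place of the strongest ones, the median distances fell to 18, 14 and 15 bp for the same 3 pairs. Only 4.07%, 3.05% and 3.33% of members were then more than 100 bp apart, against 13.7%, 8.94% and 10.8% of the near set. The closest pair can never lie further apart than the strongest ones, so that the fall was fixed in advance. Members more often have several summits to choose from, so that part of the contrast with the near set is built in.

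Summit agreement differed with length and with strength. The median distance between biological replicates was 17.5 bp in members under 500 bp and 30, 33.8 and 59.2 bp in the longer classes, against 28, 60, 78.5 and 91 bp in the near set, so that members were closer in every length class. By the lowest −log10 p of the 3 libraries, the median distance was 34 bp in members from 10 to under 12 and 12.5 bp in the 69 members at 20 or more. All 3 summits lay within 20 bp in 39.1% of the 69 strongest members and in 15.9% of the 492 weakest.

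The tightest summits lay on scaffold 718 (15535 to 16105), at base 15718 in replicate 2, 15717 in technical replicate 1 and 15718 in technical replicate 2. The same scaffold held the next, from 357219 to 357519, with all summits within 2 bp around base 357380. Scaffold 1272 (189711 to 190070) and scaffold 62 (1160112 to 1160809) followed with spans of 2 and 3 bp. On scaffold 62 the folds were 12.8 in replicate 2, 5.98 in technical replicate 1 and 6.09 in technical replicate 2, so that summits could coincide where folds did not. The widest span, 888 bp, was on scaffold 38 (995905 to 996166), where the best replicate 2 peak ran past the region and had its summit outside it, at base 996893. Spans of 729 bp on scaffold 256 (286917 to 287298) and of 699 bp in 2 neighbouring members on scaffold 224 also came with a best summit outside the region. In 10 members (0.924%) a summit lay outside the region. The other 1072 had a median distance of 28.5 bp between biological replicates and a widest span of 628 bp.

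Nearly every member had a counterpart at 12 h. A 12 h region overlapped 1081 of the 1082 (99.9%, Wilson interval 99.5 to 99.98), against 99.5% of the near set, 89.8% of all other compact regions with a peak in every library and 63.2% of all compact regions. Strength in all libraries was part of the choice but presence at 12 h was not. Within the near set the share was 99.1% in regions under 500 bp and 99.8% from 850 to under 1000 bp, and the 285 regions of 1000 bp or more at the same limit all had a counterpart. Both stages have 1 list each, so that no replicate error of a difference between stages could be had. The regions chosen in 1 replicate alone had a 12 h counterpart in 98.4% of 1734 for replicate 1 and in 97.4% of 7094 for replicate 2. The only member without one was on scaffold 1150 (201478 to 201832), and the next member on that scaffold lay 331 bp away.

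The bounds of the counterpart lay close to those of the member. In 950 members (87.8%) the 12 h region and the 20 h region each matched only the other, against 84.7% of the near set and 50.9% of all compact regions. Their median length was 695 bp at 20 h and 688 bp at 12 h, whereas all compact regions matched in this way had 287 bp at 20 h and 365 bp at 12 h. The 20 h region was longer in 423, the 12 h region in 522 and neither in 5. The share longer at 20 h was 44.5%, against 42.0% of the near set and 29.4% of all compact regions. The ratio of the 12 h length to the 20 h length had a median of 1.01, with an interquartile range on the log2 scale of -0.10 to 0.13, against 1.03 in the near set and 1.19 in all compact regions. The study's read totals after removal of duplicates are far lower for the later stage than for the earlier one. Libraries of the earlier stage were all paired end, and those of the later stage were mixed. The part of depth and sequencing mode in these lengths and bounds was not tested. Length ratios and bounds are thus no measure of a change between stages. The starts differed by a median of 27 bp and the ends by a median of 27 bp, against 33 bp each in the near set and 50 bp each in all compact regions. Both bounds agreed within 50 bp in 463 (48.7%), against 41.1% and 27.0%. The 12 h region enclosed the 20 h region in 346 of the 950, the 20 h region enclosed the 12 h region in 190, and the pair was shifted in 414. The 20 h start lay downstream of the 12 h start in 552 (58.1%), by a median over all 950 of 6 bp, and the 20 h end lay downstream of the 12 h end in 400 (42.1%), with a median of -4 bp.

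**Figure D4:**
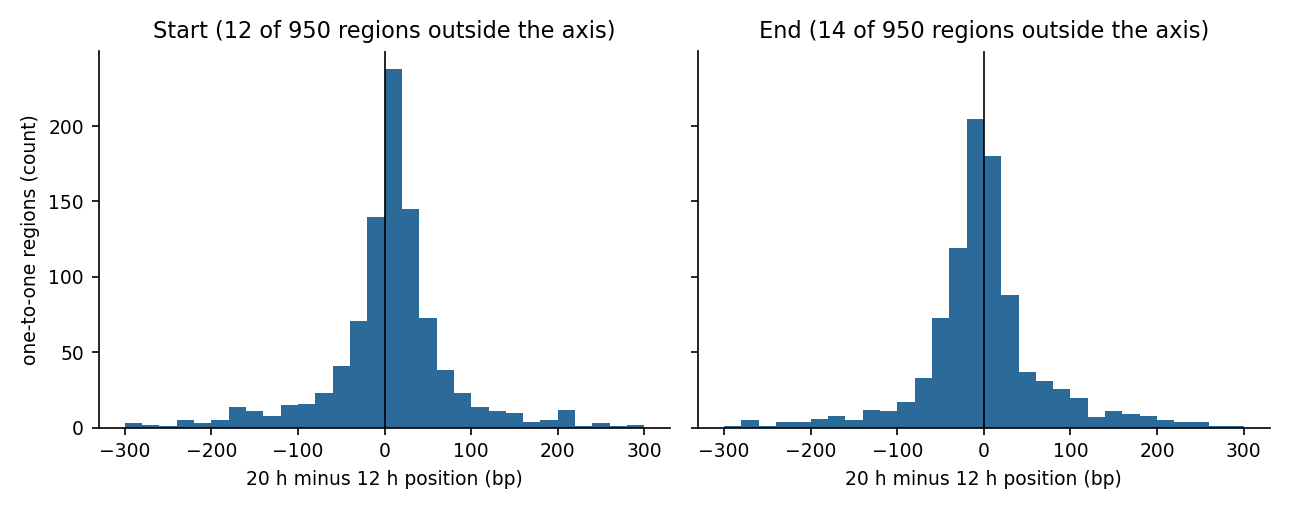
Difference in start (left) and end (right) between a 20 h member and its 12 h counterpart, as 20 h minus 12 h position in bp with bars 20 bp wide, for the 950 pairs in which each region matched only the other. Both distributions centre near 0, with medians of 6 bp for starts and -4 bp for ends, and 12 starts and 14 ends lie beyond 300 bp.

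The median length ratio of the matched pairs fell from the shortest to the longest class of members. The median ratio of the 12 h length to the 20 h length was 1.08 in members under 500 bp, 1.03 from 500 to under 700 bp, 1.00 from 700 to under 850 bp and 0.983 from 850 to under 1000 bp. These classes are cut on the 20 h length, which is also the divisor of the ratio. A fall across the classes is thus partly built in and is no measure of a change between stages. The limit of 1000 bp acts on the 20 h length only, so that 12 h counterparts could be longer than that. A single pair had identical bounds, on scaffold 422 (438871 to 439481), where the folds were 15.1 in replicate 2, 7.48 in technical replicate 1 and 6.86 in technical replicate 2. The 12 h region was more than 2 times longer in 5 pairs, led by scaffold 627 (189460 to 189707) with 248 bp at 20 h and 579 bp at 12 h. Scaffold 501 (91633 to 91998) and scaffold 29134 (681 to 1142) came next, with 366 and 462 bp at 20 h and 829 and 1040 bp at 12 h. The 20 h region was more than 2 times longer in 1 pair, on scaffold 1372 (148934 to 149493), with 560 bp at 20 h and 271 bp at 12 h. In that pair the 3 summits lay within 4 bp of each other and inside the shorter 12 h bounds. Scaffold 1207 (31863 to 32839) and scaffold 2731 (32212 to 33067) had 12 h to 20 h ratios of 0.514 and 0.558.

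The set was spread over 743 scaffolds, with some members close together. Of these scaffolds, 527 held 1, 136 held 2, 50 held 3, 21 held 4 and 9 held 5 or more. No expected spacing was computed, so that the values below do not tell scatter from clustering. The scaffolds with a member held 41.3% of the span covered by the lists and 45.4% of all 20 h regions. The density was 1.23 members per Mb over all scaffolds and 1.36 per Mb over the 1297 scaffolds of at least 200 kb, of which 557 held a member. The near set reached 1724 scaffolds. Another member was present on the scaffold for 555 members, at a median distance of 104833 bp (interquartile range 29240 to 240259.5), and breaks between scaffolds cut off longer distances. The distance follows the number of regions taken, with a median of 62332 bp among the 2314 regions that met the limit without regard to technical replicate 1 and of 28613.5 bp among the 5623 regions at a limit of 5. A neighbour from the set lay within 10000 bp of 76 members (7.02%), in 37 runs of which 2 held 3 members.

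**Figure D5:**
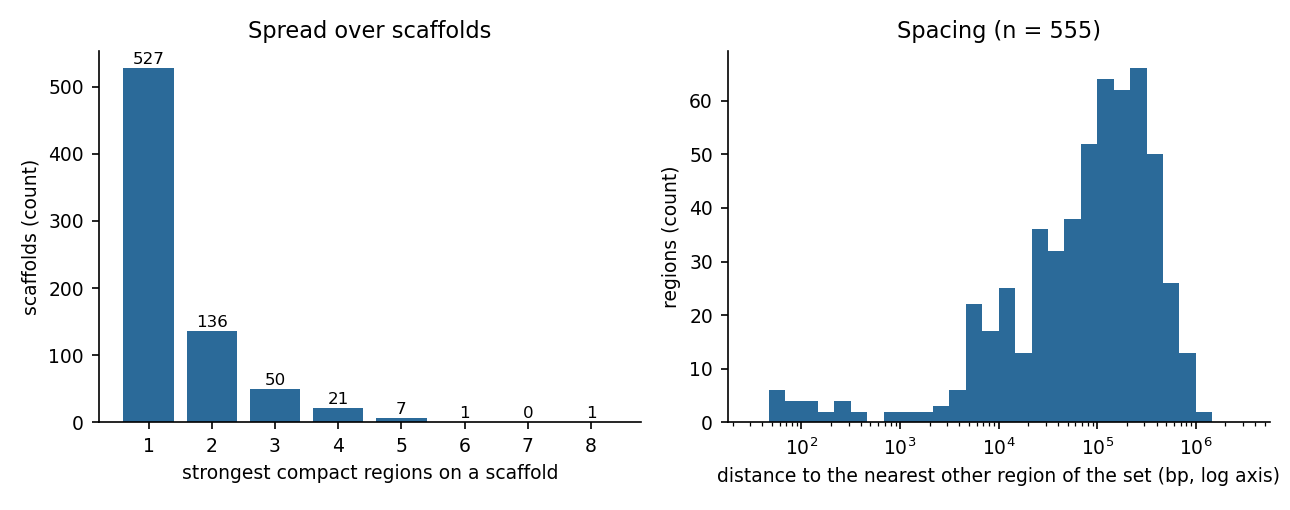
Number of scaffolds by how many of the 1082 regions they hold (left), and distance in bp on a log axis to the nearest other region of the set for the 555 regions with another on the scaffold (right). Most scaffolds with any hold 1 (527 of 743), and the distances have a median of 104833 bp with a small group of 24 under 1000 bp.

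Several of the closest neighbours shared a 12 h region. The members of the tightest pair lay 50 bp apart on scaffold 257, from 1604 to 2113 and from 2164 to 2440, and 1 region from 1599 to 2435 overlapped both at 12 h. Pairs on scaffold 224, 53 bp apart, and on scaffold 218, 55 bp apart, also shared a 12 h region each, of 1075 and 1123 bp. The pair on scaffold 535, from 144450 to 144918 and from 144988 to 145335, lay 69 bp apart and had separate 12 h regions of 694 and 356 bp. Of the 12 pairs less than 1000 bp apart, 5 shared a 12 h region. The best peak was common to a pair of members for 8 members in replicate 2, 6 in technical replicate 2 and 0 in technical replicate 1, so that those members are not separate measurements in those libraries.

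Scaffold 3 held the most members, 8 of its 789 regions of 20 h, at 3.43 per Mb. They ran from 198589 to 2233503 with at least 71471 bp between neighbours, and their mean folds lay between 6.18 and 10.9. Scaffold 72 held 6 of 333 regions, at 5.01 per Mb, with mean folds of 7.96 to 10.5 and a shortest gap of 12824 bp. Scaffold 21, 1 of 7 scaffolds with 5 members, had mean folds of 7.28 to 9.59. Replicate 2 had a higher fold than both libraries of replicate 1 in all 6 members on scaffold 72. On scaffold 21 that held for 3 of the 5. On scaffold 3 it failed only for the member from 1018667 to 1019311, with 7.83 in replicate 2 and 8.42 in technical replicate 1. Over the set, 81.7% of members were higher in replicate 2 than the replicate 1 mean, which is a looser measure. The counts are small and show no difference between scaffolds.

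In the median, members stood further from their neighbours in the 20 h list than compact regions in general did, but not as far as longer regions of the same strength. The nearest 20 h region of any strength lay a median of 1060 bp away (interquartile range 275.5 to 2754), against 737 bp for the near set, 589 bp for all compact regions and 1857 bp for the 285 regions of 1000 bp or more at the same limit. It lay within 500 bp of 373 members (34.5%), against 40.5% of the near set, 44.7% of all compact regions and 27.0% of the 285 long ones. The best peak covered a median of 94.7% of the member in replicate 2, 86.9% in technical replicate 1 and 92.2% in technical replicate 2.

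A handful of members fell in cis-regulatory modules, genomic fragments near developmental genes that were tested in reporter constructs. Of the set, 7 members (0.647%) overlapped a module of the study's list, against 0.198% of all compact regions. Members are longer than other compact regions and the modules were picked near regulatory genes and for conservation, so that the shares are not comparable as they stand. The strongest of the 7 by lowest −log10 p lay on scaffold 364 (510882 to 511733), in modules Tbx23_Ur_02 and Tbx23_Ur_03 of a T-box transcription factor gene. It had folds of 9.25 in replicate 2, 7.78 in technical replicate 1 and 6.28 in technical replicate 2. Scaffold 857 held members from 247437 to 248156 and from 255054 to 255987, 6897 bp apart, in modules Lim1_Ur_01 and Lim1_Ur_03 of a LIM homeobox gene. Their mean folds were 5.08 ± 0.0459 and 5.03 ± 0.540 (SD, n = 2). All 7 members in modules had a mean fold below the set's median of 8.65, the highest being 8.49 on scaffold 912.

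The other 4 modules also belonged to transcription factor genes. IrxA_Uf_01, of an Iroquois homeobox gene, held the member on scaffold 688 (252267 to 253217), with 10.04 in replicate 2, 6.33 in technical replicate 1 and 6.94 in technical replicate 2. FoxB_Ur_01 and FoxG_Dr_01, of forkhead genes, held members on scaffold 912 (291772 to 292486) and on scaffold 3 (2075210 to 2076014). The mean folds were 8.49 ± 3.41 for the first and 6.18 ± 1.12 for the second (SD, n = 2). Sip1_Ir_02, of a zinc finger homeobox gene, held the member on scaffold 5 (921781 to 922509), with 11.01 in replicate 2, 5.98 in technical replicate 1 and 4.64 in technical replicate 2. The summits of the 3 libraries spanned 16 to 240 bp in the 7 members, tightest in IrxA_Uf_01 and widest in FoxB_Ur_01. Each of the 7 had a 12 h counterpart that matched only it, with lengths of 656 to 994 bp at 12 h.

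The limit cut through a continuous range. Just inside it, the lowest −log10 p was 10.01 on scaffold 457 (376928 to 377490), 10.02 on scaffold 650 (102847 to 103582) and 10.02 on scaffold 1610 (72341 to 73313). Just outside, it was 9.98 on scaffold 238 (685202 to 685870), 9.97 on scaffold 77 (628025 to 628462) and 9.97 on scaffold 219 (465220 to 466097). The mean folds were 6.68, 8.31 and 7.05 in the 3 regions inside and 5.98, 8.47 and 6.26 in the 3 outside. All 6 had a 12 h region. The folds of the regions on either side overlapped.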

How the data were processed

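The authors ran the ENCODE ATAC-seq pipeline on genome version 3.1, where MACS2 (version not stated) called peaks at a p threshold of 0.05. For every 20 h library the deposited list gives each summit's fold, a ratio of pile to local background, and its −log10 p. The deposited 20 h and 12 h lists hold merged regions from pooled libraries, without scores. Read totals per library stand only in the study's quality summary, not in the deposited lists, and no value was scaled by them. At most 300000 peaks were kept per list.

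Here each pooled 20 h region took, per library, the overlapping row (at least 1 bp) with the highest −log10 p, with its fold and summit. Technical replicates were averaged before biological replicates were compared (n = 2). All results are descriptions with no test. Intervals of shares are Wilson's at 95%, for counting error alone, and neighbouring regions are not independent. Nothing in the labels says that replicates came from separate matings, though the paper says that embryo batches differed, at times by season.

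The members, lists and named regions were chosen with earlier results of these data known. Named regions are the 8 with the highest mean fold, the 5 shortest, those with the highest, lowest and most equal fold ratio (4 each), the 4 tightest and 4 widest in summits, those without a 12 h region, those with identical bounds or extreme length ratios (3 each), the 4 closest pairs, the 3 scaffolds with most members, 3 on each side of the limit, and those in modules, for which only names and positions were taken from the study. Coordinates are 1-based. No genome of version 3.1 was used, so that no sequence or gene assignment is given. Overlap and best-row functions were tested on simulated data. Alternatives covered limits of 5 and 15, length limits, overlap rules, merging and leaving out libraries. Computations used Python 3.11.15, numpy 2.4.6 and pandas 2.3.3.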

Additional observations from a re-analysis of the deposited data

How the results depend on the processing

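The 20 h set has 1 library for replicate 2 and the 12 h libraries enter as a pooled list only. No paired analysis was possible because no comparison here rests on same-numbered libraries of both stages, and no test was run. Results under other settings are given beside the main values of 1082 members, a log2 fold ratio of 0.37, a fold correlation of 0.30, a summit distance of 29.2 bp, a 12 h share of 99.9%, a log2 length ratio of 0.02, a held out share of 62.4% and a neighbour distance of 104833 bp; no ratio between replicates changed sign.

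A limit of 5 gave 5623 members, a fold correlation of 0.35, a summit distance of 45 bp, a log2 length ratio of 0.033, a held out share of 45.02% and a neighbour distance of 28613.5 bp. A limit of 15 gave 253 members, a log2 fold ratio of 0.27, a correlation of 0.36, a summit distance of 23 bp, a 12 h share of 100%, a held out share of 53.5% and a neighbour distance of 147679 bp. Lengths under 500 bp gave 201 members, a log2 fold ratio of 0.12, a correlation of 0.26, a summit distance of 17.5 bp, a log2 length ratio of 0.11, a held out share of 38.9% and a neighbour distance of 134731 bp. Without a length limit the correlation was 0.33, and with regions merged within 100 bp it was 0.29. With technical replicate 1 alone on the replicate 1 side it was 0.27, and with technical replicate 2 alone it was 0.27, with a log2 fold ratio of 0.42 and a summit distance of 24 bp. The closest summits lay 17.5 bp apart. A 12 h overlap of 50% of each region left a share of 95.5%. The causes were not tested.

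Leaving out 1 library in turn gave 1505 to 2314 members (1734 without replicate 2 and 2314 without technical replicate 1), with a log2 fold ratio of 0.33 to 0.42, a correlation of 0.32 to 0.33, a summit distance of 25 to 34 bp, a 12 h share of 98.4 to 99.7%, a log2 length ratio of 0.01 to 0.03, a held out share of 39.6 to 47.9% and a neighbour distance of 62332 to 74117 bp. Both of the last have their lowest value without technical replicate 1. Fewer libraries are a weaker requirement by construction. Values that need replicate 2 were not given without it. Limiting the summit distance to members with all summits inside the region, chosen after the data were seen, gave 28.5 bp.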
